A study of Homo sapiens with 6 samples.

Results

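The genes followed here act in the ATR and CHEK1 replication checkpoint and in the sensing of broken DNA: ATR, ATRIP, TOPBP1, CLSPN, CHEK1, CHEK2, MRE11, RAD50, SMC5 and SMC6. They were chosen by gene symbol, with earlier results of these data known. All 10 were measured, by 12 of the 16098 probe sets that could be named, so that the set made up 10 of 14884 named genes. RNA was profiled on 3 NHE3kd arrays (replicates 2, 3 and 10) and 3 Ctrl arrays (replicates 1, 4 and 9). Both groups were SK-CO15 cells, a colonic adenocarcinoma line. NHE3kd cells carried pooled shRNAs that target SLC9A3, which encodes the apical sodium/proton exchanger NHE3, delivered by an FIV-based lentivirus with the U6 promoter. Ctrl cells carried scrambled shRNA delivered in the same way. Both were sorted for EGFP, selected with puromycin, kept as mixed populations rather than clones, and collected after growth to confluence in medium with serum. The labels do not say whether replicates were separate cultures, so the p-values may reflect technical spread alone.

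No probe set was named SLC9A3, whose level is not analysed here, and the labels' knockdown was therefore not checked. The deposited values are log2 differences from the Ctrl mean, which gives changes but no expression levels, and the colonic label could therefore not be checked by level either. Of 11 listed colonic epithelial markers 9 were measured. VIL1, which encodes the brush border protein villin, rose by 0.77 on the log2 scale (limma adjusted p = 0.00168), and 0 markers passed as lower. KRT20, a keratin of mature colonic cells, differed by -0.86 without passing (limma adjusted p = 0.0814, unadjusted p = 0.00957). All NHE3kd arrays lay below all Ctrl arrays for KRT20. Of 6 fibroblast markers 3 were measured and 0 passed, with differences between 0.00060 and 0.043 (0 passed at an unadjusted p under 0.05 either).

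Stretches of single-stranded DNA at stalled forks are bound by the ATR kinase through its partner ATRIP. TOPBP1 switches the kinase on, and claspin, the product of CLSPN, brings CHEK1 to it, so that entry into mitosis and origin firing are held back. Ends of broken DNA are held by MRE11 and RAD50 together with NBN, which leads through ATM to CHEK2, while SMC5 and SMC6 form a ring that acts when forks are repaired by recombination. In colorectal tumours with defective mismatch repair, short repeats in MRE11 and RAD50 are known sites of mutation.

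The promoters of 4 genes are shown because they mark the span of the results: by gene means RAD50 and SMC6 had the highest log2 differences of the set and CHEK1 the lowest, and CLSPN, with SMC6, passed without each array in turn. Each is the 250 bases before the transcription start, for CLSPN with the first 3 bases after it, taken from RefSeq on GRCh38.p14. RAD50 is at chr5:132556727-132556976 (plus strand), SMC6 at chr2:17753811-17754060 (minus strand), CLSPN at chr1:35769976-35770228 (minus strand) and CHEK1 at chr11:125625974-125626223 (plus strand). Capitals mark the E2F letters TTTCCCGC or TTTGGCGC, or a CCAAT box, on either strand. Other forms of the E2F motif were not searched and would stand in lower case.
RAD50: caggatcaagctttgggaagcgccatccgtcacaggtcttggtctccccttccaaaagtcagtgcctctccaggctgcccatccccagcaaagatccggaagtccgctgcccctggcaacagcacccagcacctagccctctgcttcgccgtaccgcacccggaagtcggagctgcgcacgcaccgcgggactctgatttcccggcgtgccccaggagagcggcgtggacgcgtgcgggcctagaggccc
SMC6: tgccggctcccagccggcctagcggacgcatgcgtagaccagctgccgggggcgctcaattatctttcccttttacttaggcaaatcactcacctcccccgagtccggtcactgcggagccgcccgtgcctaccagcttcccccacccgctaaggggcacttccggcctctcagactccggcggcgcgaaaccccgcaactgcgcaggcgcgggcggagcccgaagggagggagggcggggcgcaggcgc
CLSPN: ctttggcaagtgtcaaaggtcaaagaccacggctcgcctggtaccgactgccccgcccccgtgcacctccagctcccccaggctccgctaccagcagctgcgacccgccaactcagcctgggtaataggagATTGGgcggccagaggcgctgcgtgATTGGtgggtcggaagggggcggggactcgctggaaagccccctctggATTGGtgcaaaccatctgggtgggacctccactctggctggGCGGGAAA
CHEK1: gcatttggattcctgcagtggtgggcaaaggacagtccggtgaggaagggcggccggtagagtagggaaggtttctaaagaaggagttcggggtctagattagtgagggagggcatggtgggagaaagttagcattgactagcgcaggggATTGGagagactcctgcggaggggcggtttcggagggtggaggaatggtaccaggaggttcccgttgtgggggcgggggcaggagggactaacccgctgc

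E2F proteins are transcription factors of genes needed for DNA replication, and NF-Y binds CCAAT boxes of many cell cycle genes. Motifs were searched on both strands from 250 bases before to 50 bases after each start, in 13 windows of the 10 members (ATRIP and CHEK1 have several starts, and the first of CHEK1 is printed) and in 35116 RefSeq promoters. The E2F letters TTTCCCGC or TTTGGCGC lay in the promoter of 1 member, CLSPN, and in 2.27% of all promoters. The CLSPN match starts 5 bases before the start and overlaps a GC box. CCAAT lay in 5 members (ATRIP, CHEK1, CHEK2, CLSPN and MRE11) and in 34.6% of all promoters, with 3 matches each in CLSPN, CHEK2 and a window of CHEK1. The CCAAT box of CLSPN farthest from the start overlaps a GC box. The GC box GGGCGG lay in 10 of 10 members (for ATRIP in its first window only) and in 45.0% of all promoters, and the CHR letters TTTGAA in 0 members and in 15.2%. Members were counted by a match in any of their windows, whereas the percentages count single promoters. The 13 member windows were 59.0% to 73.7% G and C. RAD50 and SMC6, shown above without capitals, hold neither E2F letters nor CCAAT in this window, which says only that these letters are not there.

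The set was shifted upward in NHE3kd cells. It was chosen with earlier results of these data known, so the counts and medians below describe it and give no independent support. Of the 10 genes, 5 were higher in NHE3kd (RAD50, SMC6, ATR, MRE11 and CLSPN), 0 were lower and 5 did not pass the test at a limma adjusted p under 0.05. At an unadjusted p under 0.05, 9 were higher, all but CHEK1, beside 20.2% of named genes that were higher and 32.5% that passed in either direction at this p. Over the whole array 8.74% of 48144 probe sets passed, 14.5% of named genes passed, and 9.96% of named genes passed as higher in NHE3kd. The median log2 difference of the set was 0.38, against -0.00080 over all named genes. In 9 of 10 members the lowest NHE3kd value exceeded the highest Ctrl value, a pattern seen in 21.1% of named genes. The array medians of the set were 0.32, 0.46 and 0.38 on NHE3kd replicates 2, 3 and 10, against 0.080, -0.087 and -0.013 on Ctrl replicates 1, 4 and 9. In bulk RNA such as this, a change in the share of cells that express a gene and a change in RNA per cell cannot be told apart.

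**Figure D1:**
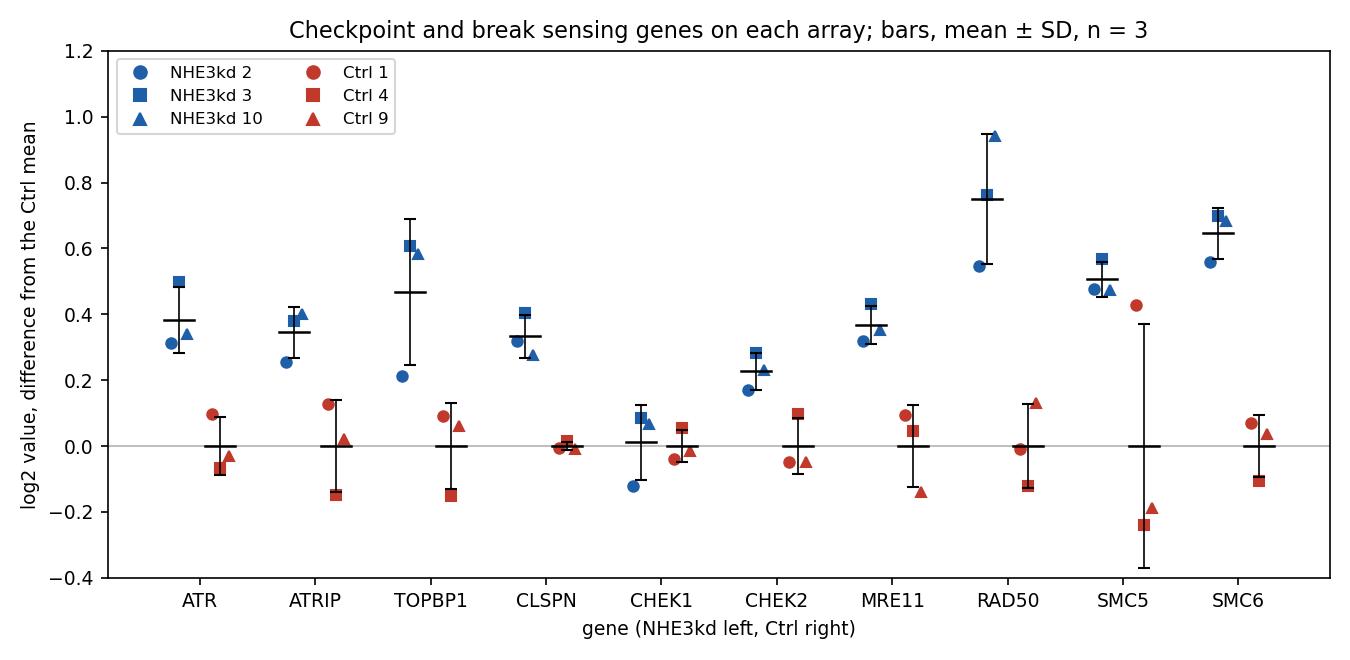
Log2 difference from the Ctrl mean of the 10 genes on each array, with NHE3kd arrays left of Ctrl arrays, points for arrays and bars for mean ± SD (n = 3). The NHE3kd points lie above the Ctrl points for 9 genes and mix with them for CHEK1.

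The set moved beside a shift of genes of dividing cells, which were also listed with earlier results known. Of 14 listed markers of dividing cells 14 were measured, 13 were higher in NHE3kd and 0 were lower, with a median log2 difference of 0.87. The highest were MKI67 (2.06, limma adjusted p = 0.00184), TOP2A (1.76, adjusted p = 0.00164), TYMS (1.36, adjusted p = 0.00253) and CCNA2 (1.32, adjusted p = 0.00216). MCM2, a subunit of the replicative helicase, was the marker that did not pass (0.27, adjusted p = 0.0523). Their part in the result was not tested.

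ATR, the apical kinase, was 1.30-fold higher in NHE3kd cells. Its values were 0.31, 0.50 and 0.34 on the NHE3kd arrays, against 0.098, -0.068 and -0.031 on the Ctrl arrays, with the replicates in the order 2, 3 and 10 and the order 1, 4 and 9 here and in all values that follow. The NHE3kd arrays all lay above the Ctrl arrays, by clearly more than the spread within either group. ATR differed by 0.38 ± 0.069 on the log2 scale (SE, 95% CI 0.21 to 0.56, limma adjusted p = 0.0294). That call held without Ctrl 1 and was lost without any of the other 5 arrays, with an adjusted p of up to 0.101.

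ATRIP, the partner that ties ATR to single-stranded DNA, did not pass. It read 0.25, 0.38 and 0.40 in NHE3kd, against 0.13, -0.15 and 0.021 in Ctrl. The groups did not overlap, although Ctrl 1 came near to NHE3kd 2. Its log2 difference was 0.34 ± 0.083 (SE, 95% CI 0.14 to 0.55, 1.27-fold, limma adjusted p = 0.0658). The difference between ATR and ATRIP within an array was 0.038 higher in NHE3kd than in Ctrl, which was smaller than the spread between arrays (exact permutation p = 0.7, two-sided).

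TOPBP1, which activates ATR, showed 1 low NHE3kd array. Its values were 0.21, 0.61 and 0.58 in NHE3kd, against 0.091, -0.15 and 0.060 in Ctrl. NHE3kd 2 stood nearer to the Ctrl arrays than to the other NHE3kd arrays, and the groups still did not overlap. The log2 difference was 0.47 ± 0.13 (SE, 95% CI 0.15 to 0.79, 1.38-fold, limma adjusted p = 0.0951). Without NHE3kd 2 it was 0.59 and passed (adjusted p = 0.0344).

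By gene means CLSPN, the adaptor between ATR and CHEK1, had the smallest spread of the set among Ctrl arrays (SD 0.065 in NHE3kd and 0.013 in Ctrl, n = 3 each). Its 2 probe sets ran in opposite order over the Ctrl arrays, which narrows the spread of their mean. The mean of its 2 probe sets was 0.32, 0.40 and 0.28 in NHE3kd, against -0.0044, 0.014 and -0.010 in Ctrl. All 3 NHE3kd arrays stood well above the Ctrl arrays. As a gene mean, CLSPN differed by 0.33 ± 0.042 on the log2 scale (SE, 95% CI 0.23 to 0.44, 1.26-fold, limma adjusted p = 0.0109), and it passed without each array in turn.

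The CLSPN change came from 1 of its 2 probe sets. Probe set A read 0.65, 0.78 and 0.55 in NHE3kd, against -0.054, 0.024 and 0.030 in Ctrl. Its log2 difference was 0.66 ± 0.065 (SE, limma adjusted p = 0.00579), so the gene mean understates it, and by this probe set CLSPN stood just above SMC6. Probe set B read -0.013, 0.031 and -0.00050 in NHE3kd, against 0.045, 0.0052 and -0.050 in Ctrl. Its groups overlapped, with a log2 difference of 0.0056 ± 0.037 (SE, adjusted p = 0.965). Probe set numbers of this array run along the strands: 29 of the 29 named neighbours of probe set A lay on the strand of CLSPN, against 2 of 33 for probe set B. Which transcript probe set B reads could not be told from its annotation. The sign of CLSPN minus TOPBP1 within an array depended on the probe set: NHE3kd relative to Ctrl was -0.13 by the gene mean and 0.19 by probe set A, a choice made after seeing the data. The groups overlapped either way (exact permutation p = 0.4, two-sided, in both cases).

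**Figure D2:**
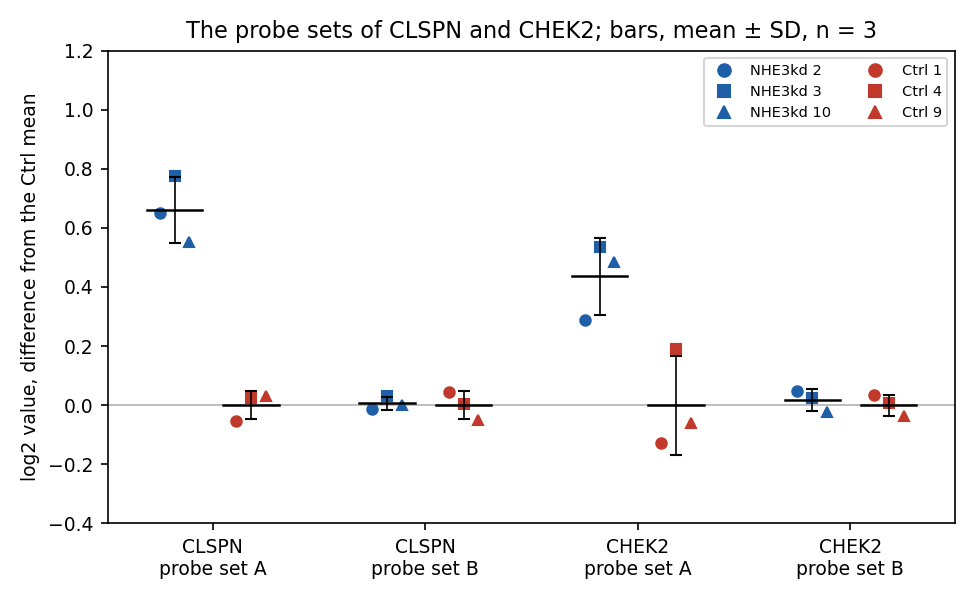
Log2 difference from the Ctrl mean on each array for probe sets A and B of CLSPN and of CHEK2, with NHE3kd left of Ctrl, points for arrays and bars for mean ± SD (n = 3). In each gene probe set A separates the groups and probe set B stays near 0 on all 6 arrays.

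CHEK1, the kinase that claspin brings to ATR, had the lowest log2 difference of the set. It read -0.12, 0.086 and 0.068 in NHE3kd, against -0.041, 0.056 and -0.015 in Ctrl. The groups overlapped through NHE3kd 2, the lowest of all arrays, while the other NHE3kd arrays lay just above the highest Ctrl array. The log2 difference was 0.011 ± 0.066 (SE, limma adjusted p = 0.961), and its 95% CI of -0.15 to 0.18 covers small changes either way. Without NHE3kd 2 it was 0.077 and did not pass (adjusted p = 0.45), and without Ctrl 1, NHE3kd 3 or NHE3kd 10 it turned negative, down to -0.026.

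CHEK2, the effector kinase below ATM, did not pass. Its 2 probe sets averaged 0.17, 0.28 and 0.23 in NHE3kd, against -0.049, 0.097 and -0.049 in Ctrl. The groups did not overlap, with a log2 difference of 0.23 ± 0.056 (SE, 95% CI 0.087 to 0.37, 1.17-fold, limma adjusted p = 0.0716). Probe set A differed by 0.44 ± 0.11 (SE, adjusted p = 0.0694), with 0.29, 0.54 and 0.48 in NHE3kd, against -0.13, 0.19 and -0.060 in Ctrl. Probe set B differed by 0.017 ± 0.036 (SE, adjusted p = 0.881) with overlapping groups, and of its 33 named neighbours by number only 3 lay on the chromosome of CHEK2. CHEK2 minus CHEK1 within an array was 0.29, 0.20 and 0.16 in NHE3kd, against -0.0079, 0.042 and -0.034 in Ctrl. All NHE3kd values were the higher ones, at an exact permutation p of 0.1 (two-sided), the smallest that 3 against 3 arrays can give, and 0.5 after adjustment over the 5 pairs of partners compared. The difference was 0.22 by the gene mean and 0.43 by probe set A, a choice made after seeing the data, at the same exact permutation p.

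RAD50, the ATP-driven clamp that holds DNA ends together, had the highest log2 difference of the set by gene mean and by single probe sets. It read 0.55, 0.76 and 0.94 in NHE3kd, against -0.0090, -0.12 and 0.13 in Ctrl. The lowest NHE3kd array lay 0.42 above the highest Ctrl array. The difference was 0.75 ± 0.12 (SE, 95% CI 0.46 to 1.04), or 1.68-fold (limma adjusted p = 0.0193). The NHE3kd arrays were spread more widely (SD 0.20, n = 3) than the Ctrl arrays (SD 0.13, n = 3). The call was lost without Ctrl 1 (adjusted p = 0.0551), Ctrl 4 (0.0716) or NHE3kd 3 (0.0816).

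MRE11, the nuclease bound to RAD50, was 1.29-fold higher. It read 0.32, 0.43 and 0.35 in NHE3kd, against 0.095, 0.045 and -0.14 in Ctrl. The NHE3kd arrays lay close together and above all Ctrl arrays. The log2 difference was 0.37 ± 0.072 (SE, 95% CI 0.19 to 0.55, limma adjusted p = 0.0364), a call lost without Ctrl 4 or any of the 3 NHE3kd arrays. MRE11 minus RAD50 within an array was -0.23, -0.33 and -0.59 in NHE3kd, against 0.10, 0.17 and -0.27 in Ctrl. Ctrl 9 fell among the NHE3kd values, and the difference of -0.38 was not separated from the array spread (exact permutation p = 0.2, two-sided).

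NBN, which completes the complex with MRE11 and RAD50, was singled out after its values were seen, as the remaining subunit of that complex. It read -0.070, 0.026 and 0.020 in NHE3kd, against 0.22, -0.067 and -0.16 in Ctrl. The groups overlapped widely, with a log2 difference of -0.0080 ± 0.10 (SE, limma adjusted p = 0.984). No test of NBN against MRE11 or RAD50 was made.

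SMC6, the partner of SMC5 in its ring, had the lowest adjusted p of the set by gene means. It read 0.56, 0.70 and 0.68 in NHE3kd, against 0.070, -0.11 and 0.037 in Ctrl. Both groups were tight (SD 0.076 in NHE3kd and 0.094 in Ctrl, n = 3 each) and far apart. SMC6 differed by 0.65 ± 0.065 on the log2 scale (SE, 95% CI 0.48 to 0.81), or 1.56-fold (limma adjusted p = 0.00626), and it passed without each array in turn.

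SMC5, which pairs with SMC6, turned on 1 Ctrl array. It read 0.48, 0.57 and 0.47 in NHE3kd, against 0.43, -0.24 and -0.19 in Ctrl. Ctrl 1 sat just below the NHE3kd arrays, by 0.046, while the other Ctrl arrays lay far beneath. The log2 difference was 0.51 ± 0.19 (SE, 95% CI 0.047 to 0.97, 1.42-fold) and did not pass (limma adjusted p = 0.19). Without Ctrl 1 it was 0.72 and passed (adjusted p = 0.00923). SMC5 minus SMC6 within an array differed by -0.14 in NHE3kd relative to Ctrl (exact permutation p = 0.9, two-sided), and by 0.039 without Ctrl 1.

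**Figure D3:**
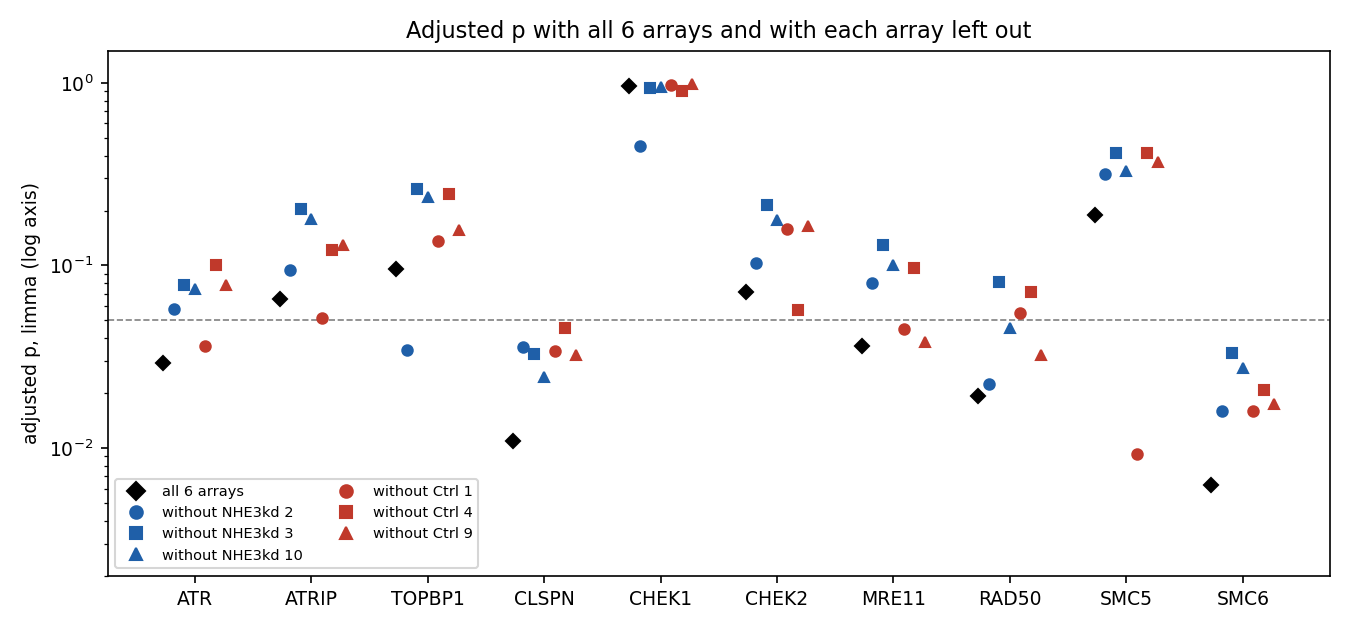
Limma adjusted p (log axis) of NHE3kd against Ctrl for each of the 10 genes, with all 6 arrays (black) and without each array in turn (blue, an NHE3kd array left out; red, a Ctrl array), and the threshold of 0.05 as a dashed line. CLSPN and SMC6 stay under the line throughout, and SMC5 falls under it only without Ctrl 1.

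Single arrays decided part of the count. Of the 10 genes, 2 passed without NHE3kd 3 or without Ctrl 4 (CLSPN and SMC6 in both cases) and 3 without NHE3kd 10. Left out singly, the other arrays gave 4 or 5. Among the members, ATR and MRE11 had the most similar values over the 6 arrays (root mean square difference 0.070), and RAD50 was nearest to SMC6 (0.12). Over all named genes, the 6 values nearest to those of RAD50 belonged to SOBP (root mean square difference 0.028), BTRC (0.047) and IFT81 (0.049), with log2 differences of 0.73, 0.74 and 0.71.

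The rest of the pathway was followed through 59 genes, listed with earlier results of these data known, of which 38 were measured. Of these 15 were higher in NHE3kd, 0 were lower and 23 did not pass by limma (27 had an unadjusted p under 0.05, beside 32.5% of named genes), and the median log2 difference was 0.37, beside 9.96% of named genes passing as higher and a median of -0.00080. The lowest NHE3kd value exceeded the highest Ctrl value in 26 of the 38, beside 21.1% of named genes. The lists differed in their counts, which were not tested against each other.

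Among genes of the clamp, its loader and ATR activation, 1 of 7 measured was higher and the median was 0.10. The list held 14 genes, and RPA1, RPA2, RPA3, RFC2, RFC3, RFC4 and RFC5 had no named probe set. Of the loader, RAD17 alone was therefore covered. ETAA1, an activator of ATR beside TOPBP1, rose by 0.50 (limma adjusted p = 0.0414), a call lost without any array but NHE3kd 2. RAD9A, a subunit of the ring-shaped clamp, differed by -0.56 without passing (adjusted p = 0.355). Among fork protection factors and mediators, 3 of 6 were higher and the median was 0.51. WDHD1, which couples helicase and polymerase, rose by 1.07 (adjusted p = 0.0037). TIMELESS, of the fork protection complex, rose by 0.66 (adjusted p = 0.00648), and its partner TIPIN differed by 0.55 without passing (adjusted p = 0.108). PAXIP1, a BRCT-domain mediator, rose by 0.47 (adjusted p = 0.0467), and its call too was lost without any array but NHE3kd 2.

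Among break sensing partners, 1 of 5 measured was higher and the median was 0.26. TTI1, which with TTI2 helps fold ATR and related kinases, rose by 0.45 (limma adjusted p = 0.0135), a call lost without Ctrl 4 or NHE3kd 3. TTI2 differed by -0.28 without passing (adjusted p = 0.473). Among checkpoint targets, 4 of 10 were higher and the median was 0.33. CDK1, the kinase of mitotic entry that the checkpoint holds in check, rose by 1.76 (adjusted p = 0.00184). CDC7, which fires origins, rose by 0.96 (adjusted p = 0.00308). The phosphatases CDC25C and CDC25A, which CHEK1 inhibits, rose by 0.68 (adjusted p = 0.00542) and 0.39 (adjusted p = 0.0298), the CDC25A call being lost without Ctrl 1, Ctrl 4, NHE3kd 3 or NHE3kd 10. WEE1, the kinase that opposes CDK1 activation, differed by -0.48 without passing (adjusted p = 0.371), and without Ctrl 9 it was -0.75 and passed (adjusted p = 0.0335).

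SMC proteins and partners of SMC5 and SMC6 passed in 6 of 10 measured genes, with a median of 0.59, and after quantile normalization SMC3 alone of them passed. SMC3, a core subunit of cohesin, rose by 1.18 (limma adjusted p = 0.00184). NSMCE4A, a subunit of the complex of SMC5 and SMC6, rose by 0.85 (adjusted p = 0.00382). SMC4 and SMC2, the ring of condensin, rose by 0.85 (adjusted p = 0.00503) and 0.77 (adjusted p = 0.0143), and the SMC2 call was lost without Ctrl 4 or NHE3kd 10. NSMCE1, another subunit beside SMC5 and SMC6, differed by 0.59 without passing (adjusted p = 0.0898). The remaining calls were SMC1A (0.59, adjusted p = 0.0054) and SLF1 (0.59, adjusted p = 0.0154), named after their values were seen, and the SLF1 call was lost without any of the 3 NHE3kd arrays.

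**Figure D4:**
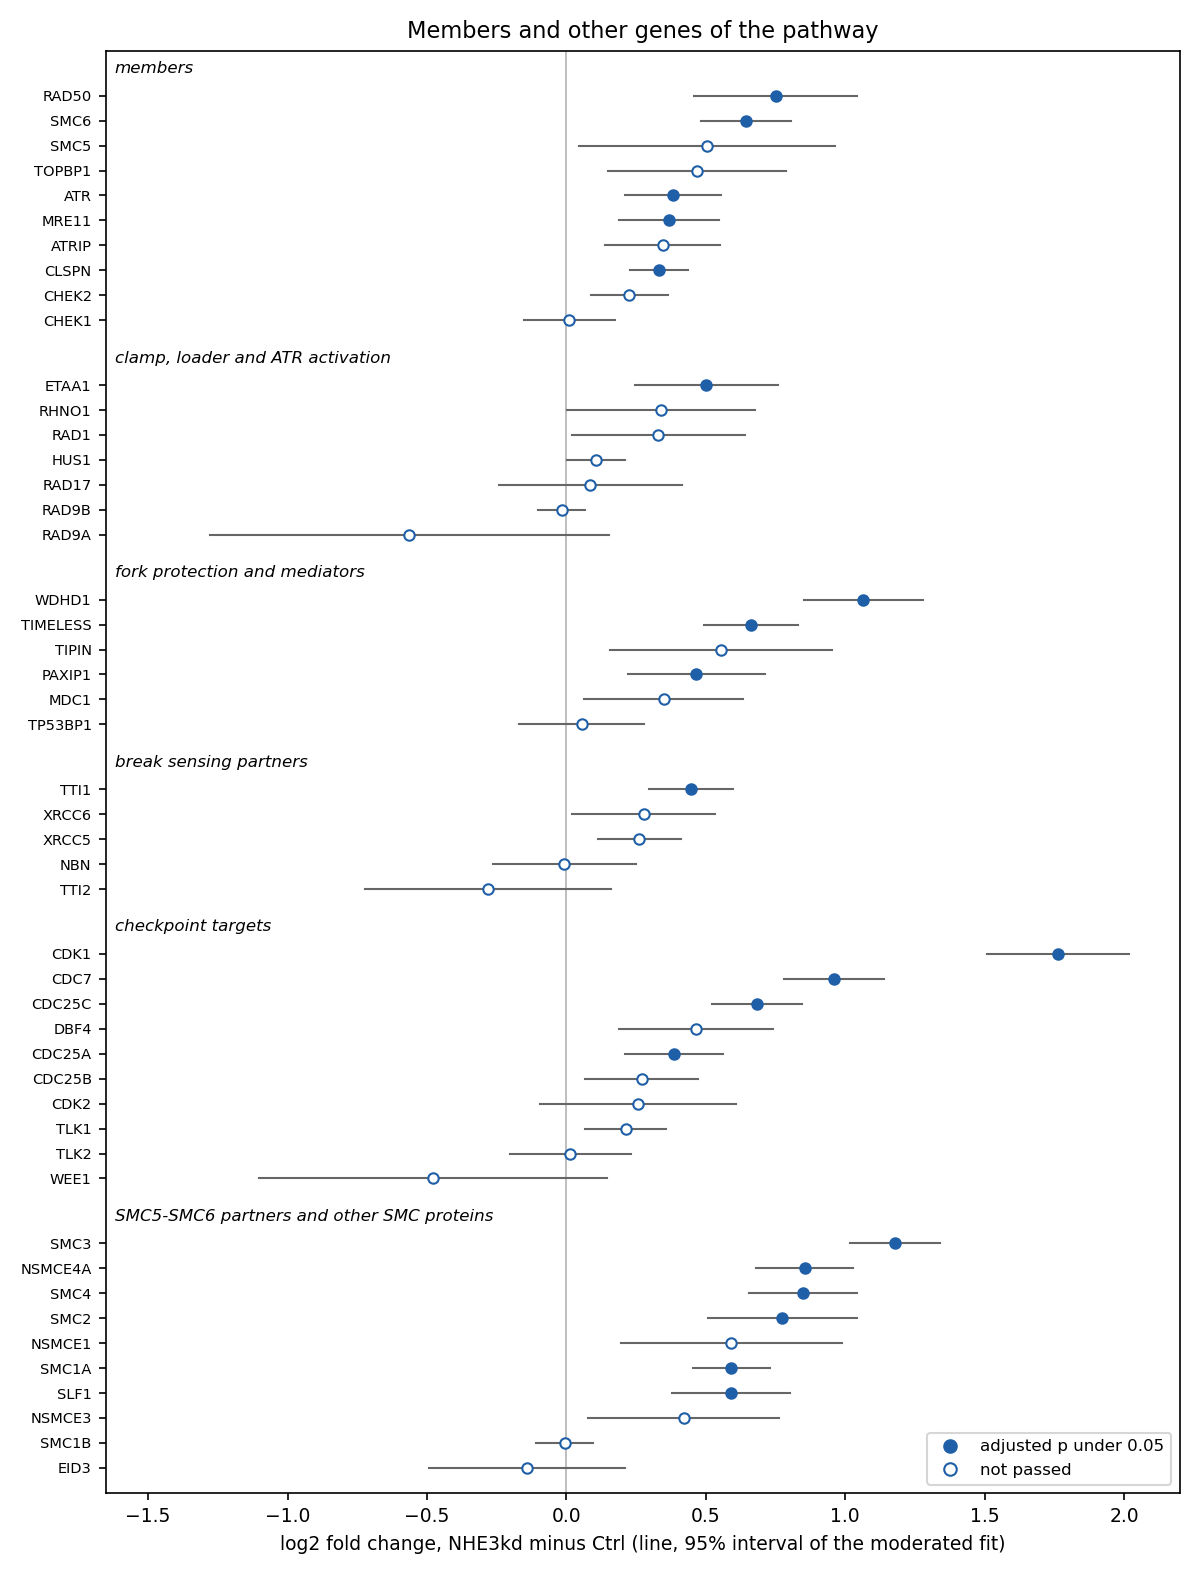
Log2 difference of NHE3kd over Ctrl with 95% confidence interval for the 10 genes and the measured genes of the pathway lists, filled where the limma adjusted p is under 0.05 and open otherwise. All filled points lie right of 0.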

How the data were processed

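Gene expression was measured on Affymetrix HuGene 2.0 ST arrays with RNA of 3 NHE3kd and 3 Ctrl samples, grouped by the labels. The authors deposited log2 values made with the RMA16 algorithm in GeneSpring GX (no version stated), and the submitters' processing notes name the build hg19. The deposited log2 values had been centred by the authors on the Ctrl mean (within 1.27e-06 of 0 for every probe set) and ran from -4.36 to 3.84. No scanner files were used here, so depth of signal over background and batches could not be looked at, and precision is limited by the number of arrays.

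Probe sets were named through the platform annotation (16098 of 48144 had 1 symbol, 0 columns went unused). The other 32046 had no symbol or several, which were not counted apart, and were left unnamed. A listed gene was counted as measured only if it had a probe set named in this way. A gene with several probe sets was their mean (779 genes). Tests used limma 3.58.1 in R 4.3.3 (lmFit and eBayes, two-sided, 4 residual and 1.61 prior degrees of freedom, no covariates), checked on simulated data, with p-values adjusted by Benjamini-Hochberg over the 48144 probe sets and a threshold of 0.05. Gene means took the prior variance from the probe set fit, and their p-values were placed on its adjustment curve. Differences between partners were tested by exact permutation over arrays.

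Members and gene lists were chosen with earlier results of these data known. The genes named were the 10 members, from each list up to 4 called genes with the largest change and the largest change not called, and the 3 genes nearest to the member with the largest change. The alternatives were quantile normalization, arrays brought to the same median, array weights, a t-test with equal variances (the study's methods name a normalized t test, whose form is not defined there), Welch's test, named probe sets only, the probe set with the highest variance, and leaving out each array, and, added after seeing the data, partner differences by the probe set with the highest variance. Promoters came from RefSeq on GRCh38.p14, with all 10 members matched. Protein motifs were not run, since no protein sequences were used here.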

Additional observations from a re-analysis of the deposited data

How the results depend on the processing

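Of the 10 members 5 passed with limma on the deposited values. After quantile normalization 0 passed by limma (5 at an unadjusted p under 0.05), by Welch's test 0 (8 at an unadjusted p under 0.05) and by the t-test with equal variances 1, SMC6; array weights and named probe sets only gave 6 each. Without each array in turn the count ran between 2 and 5. Of the 38 other pathway genes 15 passed, against 5 after quantile normalization, 9 by the equal-variance t-test, 0 by Welch's test (17 at an unadjusted p under 0.05) and 10 to 18 without each array. Over all probe sets 4206 passed, against 478, 840 and 5 under quantile normalization, the equal-variance t-test and Welch's test, and 1685 to 3682 without each array, the lowest without NHE3kd 3. The SD over all probe sets was 0.316, 0.326 and 0.313 on NHE3kd replicates 2, 3 and 10. On Ctrl replicates 1, 4 and 9 it was 0.133, 0.101 and 0.141. Quantile normalization makes these spreads equal, so the counts under it cannot tell whether the calls are sound. Why the counts differ between settings was not tested.

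Of the members, 9 stayed above 0 under all 13 alternatives. Signs turned for 7 genes, 0 of them called. Without each array, CHEK1 ran between -0.026 and 0.077, NBN between -0.086 and 0.10 (0.023 with array weights), RAD17 between -0.057 and 0.18, RAD9B between -0.031 and 0.0017, SMC1B between -0.031 and 0.029 (0.0013 with arrays brought to the same median), TLK2 between -0.029 and 0.10 and TP53BP1 between -0.032 and 0.11. ATR minus ATRIP ran between -7e-04 and 0.088, and SMC5 minus SMC6 between -0.25 and 0.039. CLSPN minus TOPBP1, -0.13 by gene means, was 0.19 by the probe set with the highest variance, chosen after seeing the data. No paired analysis was made, since the groups share no replicate number and the labels do not say whether samples were prepared in pairs. With 3 arrays a group, small changes such as that of CHEK1 lie within the interval of the difference, and the expression level behind each value is unknown.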
